A study of Arabidopsis thaliana with 12 samples.

Results

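The Aux/IAA and GH3 genes are the best known early auxin response genes of plants. They were followed here in Arabidopsis thaliana seedlings that are mutated or knocked down for 1 or both of the histone variants H3.3 and H2A.Z. The 34 members were taken by locus identifier: 29 Aux/IAA genes (IAA1 to IAA20 and IAA26 to IAA34) and the 5 genes GH3.1, GH3.2, GH3.3, GH3.5 and GH3.6. All 34 are among the 23893 genes listed in the deposited table. RNA was sequenced from 12 libraries of whole seedlings, 7 days old, raised at 21 °C in short days. Each of 4 genotypes gave 3 libraries. Col is the wild type. In h3.3kd, for which the genotype label reads h3.3kd-1, the replacement histone H3.3 is knocked down, and this is 1 line. Plants called h2a.z are mutated in H2A.Z, a variant of histone H2A. The combination h3.3kd;h2a.z carries both and is called the double mutant below. The series asks how these variants act when plants grow in warmth, but every plant used here was kept at the cooler temperature. The sources used here do not give the h2a.z alleles, the means of the knockdown or whether each library had its own sowing. Any p-value here thus covers the spread among these libraries, which may be technical. In RNA from whole seedlings, fewer cells of a type and less RNA per cell cannot be told apart.

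Auxin acts by removing repressors. Aux/IAA proteins bind auxin response factors (ARFs) on DNA and bring the co-repressor TOPLESS to them through a leucine-rich EAR motif. Auxin glues the degron of an Aux/IAA protein to the receptor TIR1 or an AFB protein, part of an SCF ubiquitin ligase, and the Aux/IAA protein is degraded. The freed ARFs then switch on target genes, and the Aux/IAA genes themselves are among these, which closes a negative feedback loop. The GH3 members encode enzymes that join auxin to amino acids and so lower its active level, a second feedback arm that auxin also induces. In seedlings these genes are known for hypocotyl and root growth, tropisms and lateral root formation, and IAA19 and IAA29 are known to respond to shade and warmth through PIF transcription factors.

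The family was split here by the sequence of the degron core, which does not by itself show which proteins auxin removes. Translated from RefSeq TAIR10.1, 23 of the 29 Aux/IAA proteins held the degron core Gly-Trp-Pro-Pro. The other 6 were IAA20, IAA30, IAA31, IAA32, IAA33 and IAA34, called non-canonical here. IAA31 held Asp-Trp-Pro-Pro in its place, from residue 47. The EAR pattern (leucine at every other position of 5) was found in every Aux/IAA protein except IAA33 and in none of the GH3 proteins. The codons of the core are shown for the 6 members that lie in neighbouring pairs and carry much of what follows. Capitals mark the codons of Gly-Trp-Pro-Pro, and each stretch lies within 1 coding exon.
IAA3 (chr1:1129022-1129042, minus strand): gttGGATGGCCACCAgttaga
IAA17 (chr1:1136944-1136964, plus strand): gtgGGATGGCCACCGgtgaga
IAA2 (chr3:8181390-8181410, minus strand): gttGGTTGGCCACCAgtgaga
IAA7 (chr3:8195574-8195594, plus strand): gtgGGATGGCCACCTgtgagg
IAA1 (chr4:8361442-8361462, plus strand): gttGGATGGCCTCCAgtgaga
IAA14 (chr4:8349481-8349501, minus strand): gtgGGTTGGCCACCGgtgagg

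The GH3 members did not all move the same way. GH3.1 is left out of the sequences below, and the others were picked by their changes. The 250 bases before the annotated start are shown for GH3.6, lower with the knockdown of H3.3, and the 3 members higher in h2a.z. They come from RefSeq TAIR10.1, 5′ to 3′ on the strand of the gene, and none overlaps an exon of another gene. Capitals mark the auxin response elements TGTCTC and TGTCGG and the G-box CACGTG, searched on both strands; none of the 3 motifs contains another.
GH3.2 (chr4:17579368-17579617, plus strand): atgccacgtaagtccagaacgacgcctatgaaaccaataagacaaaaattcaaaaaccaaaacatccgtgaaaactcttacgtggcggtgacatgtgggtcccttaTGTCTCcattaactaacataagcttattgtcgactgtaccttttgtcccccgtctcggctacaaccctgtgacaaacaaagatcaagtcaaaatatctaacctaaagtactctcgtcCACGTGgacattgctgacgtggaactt
GH3.3 (chr2:9866563-9866812, minus strand): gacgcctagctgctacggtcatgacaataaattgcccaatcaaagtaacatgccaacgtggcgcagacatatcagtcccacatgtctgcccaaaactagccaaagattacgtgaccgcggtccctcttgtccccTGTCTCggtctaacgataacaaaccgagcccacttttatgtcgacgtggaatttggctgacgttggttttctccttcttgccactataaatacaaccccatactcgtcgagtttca
GH3.5 (chr4:13653329-13653578, plus strand): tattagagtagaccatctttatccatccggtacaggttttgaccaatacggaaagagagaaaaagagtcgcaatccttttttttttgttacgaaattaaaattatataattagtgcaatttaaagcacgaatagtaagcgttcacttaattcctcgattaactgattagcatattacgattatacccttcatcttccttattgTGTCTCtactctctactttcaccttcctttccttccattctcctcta
GH3.6 (chr5:22133689-22133938, minus strand): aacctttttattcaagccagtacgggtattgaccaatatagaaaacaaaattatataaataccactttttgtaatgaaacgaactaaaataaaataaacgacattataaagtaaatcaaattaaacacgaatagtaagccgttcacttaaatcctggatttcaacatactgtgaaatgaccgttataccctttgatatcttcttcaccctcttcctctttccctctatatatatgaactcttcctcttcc

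TGTCTC, the classical auxin response element, occurred once each before GH3.2, GH3.3 and GH3.5 and was not found in these windows of GH3.1 and GH3.6. GH3.2 also held a G-box. Over all members, TGTCTC was in 12 of 34 windows (35.3%) against 10.9% of the 27443 windows of protein-coding genes of the same length. TGTCGG, the element with high ARF affinity, was in 6 (17.6%) against 4.16%. The G-box, the site bound by PIF factors, was in 5 (14.7%) against 6.49%. IAA19 held TGTCTC at 3 places and a G-box, and IAA5 held 1 TGTCTC and 2 TGTCGG. A match describes letters and is not a shown binding site, and its link to any change was not tested.

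The deposited TPM values gave back whole reads once they were multiplied by the full gene length, introns included (all but 6 of 63686 values of up to 50 reads were within 0.01 of a whole number). Levels are thus per gene length with introns. The depth was 5.74 M reads (M, 1000000 reads) in h2a.z replicate 1 and 21.6 to 33.3 M in the other 11 libraries. The targeted genes were lower where the labels say so, and 1 H2A.Z gene was also lower in h3.3kd. The 3 H3.3 genes summed to 808 to 835 TPM in Col, 251 to 259 in h3.3kd and 207 to 257 in the double mutant, with HTR4 and HTR8 strongly reduced and HTR5 at 249.9 ± 12.05 TPM in Col and 207 ± 1.998 in h3.3kd. The 3 H2A.Z genes summed to 187 to 204 in Col, 151 to 161 in the h3.3kd libraries, 31.97 to 40.5 in h2a.z and 57.4 to 70.03 in the double mutant, where HTA9 was at 60.5 ± 6.998 against 32.8 ± 4.06 in h2a.z. HTA9 was 161 ± 8.50 TPM in Col and 126 ± 2.31 in h3.3kd, and 1 of the 3 H2A.Z genes was called lower there. Leaf and root markers were present in every library. The 6 root marker genes summed to 91.1 to 132 TPM in Col, 115 to 127 in the h3.3kd libraries, 193 to 242 in h2a.z, with 114 to 131 in the double mutant. The 4 photosynthetic markers summed to 57866 to 65458 TPM in Col, 77913 to 83569.6 in the h3.3kd libraries, 52717 to 61921 in h2a.z, with 69785 to 80439 in the double mutant. The 4 seed storage genes, which fade after germination, summed to 8.09 to 16.3 TPM in Col, 46.7 to 74.3 in the h3.3kd libraries, 10.4 to 232 in h2a.z, where replicate 3 alone was high, and 78.00 to 229 in the double mutant. Of these 14 marker genes none was at 0 in any library. Their part in the results below was not tested.

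The family spanned a wide range of levels. In Col, IAA7 was the highest at 143 ± 5.64 TPM (SD, n = 3, as for every ± on a TPM value), followed by IAA16 at 107 ± 3.57, IAA8 at 105 ± 6.04 and IAA9 at 103 ± 4.05, whose libraries overlapped with one another but not with those of IAA7. IAA28 and IAA2 followed at 87.6 ± 7.62 and 85.1 ± 3.62 TPM. The lowest were IAA34 at 0.280 ± 0.223 and IAA32 at 0.0255 ± 0.0442 TPM. Of the GH3 members, GH3.6 led in Col at 46.01 ± 4.71 TPM, ahead of GH3.5 at 14.95 ± 0.603, GH3.2 at 3.47 ± 0.683, GH3.3 at 3.13 ± 0.504 and GH3.1 at 0.716 ± 0.0821. GH3.2 and GH3.3 overlapped.

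The 29 Aux/IAA genes together summed to 1009.6 to 1040.0 TPM in Col, 951 to 976 in the h3.3kd libraries, 891 to 929 in h2a.z, with 849 to 920.2 in the double mutant. As deposited, the sum was lower in every library of a mutant than in every Col library. With rescaled TPM this turned for h3.3kd, where the sum was 1014 to 1039 against 984 to 1013 in Col, and held for h2a.z (827 to 867) and the double mutant (871 to 935). The 4 highest genes of Col (IAA7, IAA16, IAA8 and IAA9) made up 44.9% of the Aux/IAA sum in Col, 57.3% in the h3.3kd libraries, 50.4% in h2a.z, with 56.5% in the double mutant. This depends on the introns in the length. Per exonic length, IAA17 took the place of IAA8 among the 4 highest, and the shares were 46.4% in Col, 52.2% in the h3.3kd libraries, 46.8% in h2a.z, with 49.6% in the double mutant. The clade of IAA1 to IAA4 summed to 207 to 229 TPM in Col, 129.6 to 133 in the h3.3kd libraries, 156 to 176 in h2a.z, with 116 to 127 in the double mutant. The clade of IAA8, IAA9 and IAA27 went the other way, from 221 to 240.5 TPM in Col to 293 to 302 in h3.3kd, 251 to 260.2 in h2a.z, with 284 to 325 in the double mutant.

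**Figure D1:**
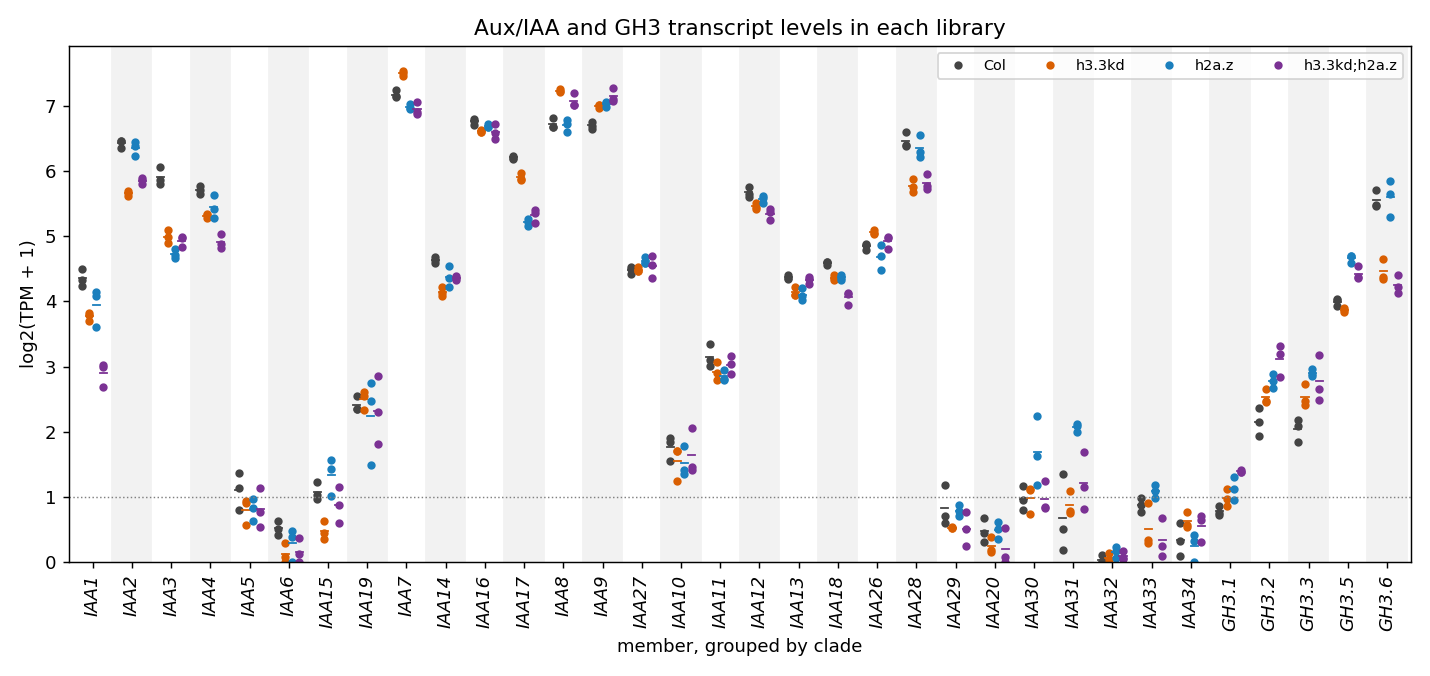
Level of each of the 34 members as log2(TPM + 1) in each of the 12 libraries. Dots are libraries, short bars group means of log2 values, and the dotted line marks 1 TPM. IAA2, IAA28 and GH3.6 form a lower pair of groups (h3.3kd and the double mutant) and a higher pair (Col and h2a.z), and the 8 untested members lie at the bottom.

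**Figure D2:**
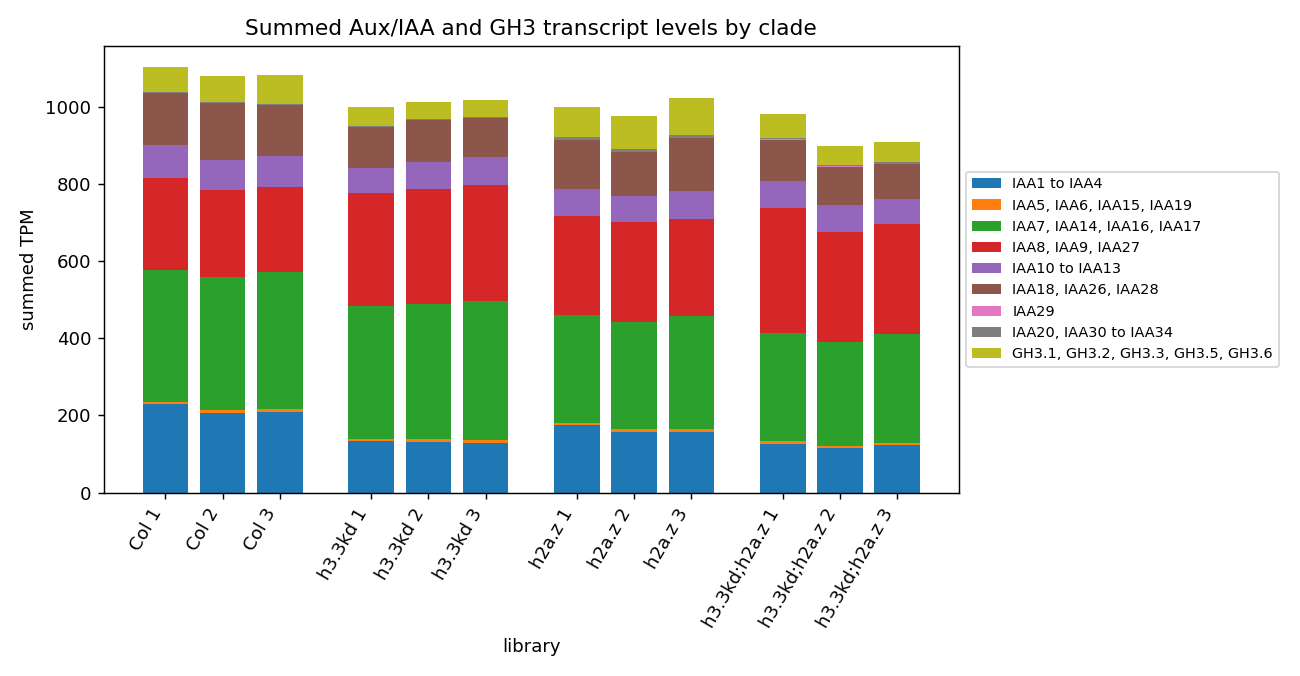
Summed TPM of the members in each library, stacked by Aux/IAA clade with the 5 GH3 genes on top. The lowest block (IAA1 to IAA4) is 207 to 229 TPM in Col and 116 to 127 in the double mutant.

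Of the 34 members, 26 reached a mean of 1 TPM over the 12 libraries and were tested; IAA5, IAA6, IAA15, IAA29, IAA20, IAA32, IAA33 and IAA34 did not. A gene is named called here when limma's Benjamini-Hochberg adjusted p over all 18851 genes tested was below 0.05, and changes are differences of log2(TPM + 1), which understate the change of low genes. IAA30, IAA31 and GH3.1 passed the filter only through the group in which they were high, so counts are also given over the other 23. Where a call is said to be lost or made under several alternatives, each was run on its own, and the ranges span them. With the knockdown of H3.3 (h3.3kd against Col) 5 members rose and 11 fell, where 9.12% and 26.7% of all genes tested were called in those directions. Over the other 23, 5 and 11 were called, and the median change of the 26 was -0.18 against -0.11 over all genes. With H2A.Z mutated (h2a.z against Col) 6 members rose and 9 fell, where 28.9% and 18.3% of all genes tested were called in those directions. Over the other 23, 4 and 9 were called, and the median change of the 26 was -0.11 against 0.058 over all genes. In the double mutant against Col 6 members rose and 12 fell, where 20.3% and 30.7% of all genes tested were called in those directions. Over the other 23, 5 and 12 were called, and the median change of the 26 was -0.12 against -0.068 over all genes. Without Col replicate 1 or h3.3kd replicate 3, the rises in h3.3kd numbered 3, and without Col replicate 1 the falls in h2a.z numbered 5. Counts over all genes are not given for these fits.

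Between the double mutant and h2a.z, which adds the H3.3 knockdown where H2A.Z is already lost, 4 members rose and 10 fell, where 14.2% and 34.3% of all genes tested were called in those directions. Over the other 23, 4 and 8 were called, and the median change of the 26 was -0.058 against -0.12 over all genes. Between the double mutant and h3.3kd, which adds the loss of H2A.Z, 4 members rose and 5 fell, where 20.9% and 13.8% of all genes tested were called in those directions. Over the other 23, 3 and 5 were called, and the median change of the 26 was 0.019 against 0.034 over all genes. In the interaction, the change in the double mutant beyond both single changes added up on the log2 scale, 5 members were called positive and 1 negative, where 7.39% and 10.1% of all genes tested were. Over the other 23, 5 and 1 were called, and the median change of the 26 was -0.029 against -0.015 over all genes. The rises against h2a.z numbered 2 without h2a.z replicate 1 or 2, and those against h3.3kd 2 without replicate 3 of h3.3kd or of the double mutant. The negative interactions numbered 2 without Col replicate 3, h2a.z replicate 2, h2a.z replicate 3 or double mutant replicate 3. They numbered 3 without double mutant replicate 1. For these fits too, counts over all genes are not given. Rescaling TPM by the median ratio moved the median of all genes from -0.11 to 0.002 in h3.3kd against Col and from -0.12 to 0.016 in the double mutant against h2a.z. With it, the share of higher genes among all calls became 50.9% (from 25.4%) in h3.3kd against Col, 49.1% (from 61.2%) in h2a.z against Col, 50.6% (from 39.8%) in the double mutant against Col, 52.7% (from 29.2%) in the double mutant against h2a.z, 50.3% (from 60.2%) in the double mutant against h3.3kd and 50.4% (from 42.3%) in the interaction. The members called higher and lower then numbered 6 and 7 in h3.3kd against Col, 6 and 12 in h2a.z against Col, 6 and 10 in the double mutant against Col, 9 and 8 in the double mutant against h2a.z, 3 and 7 in the double mutant against h3.3kd and 6 and 1 in the interaction. Of the 18851 genes tested, 3241 and 3124, 4583 and 4760, and 5042 and 4917 were called in the 3 comparisons with Col. The double mutant had 4923 and 4415 against h2a.z and 3501 and 3459 against h3.3kd, and the interaction had 1934 and 1900.

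**Figure D3:**
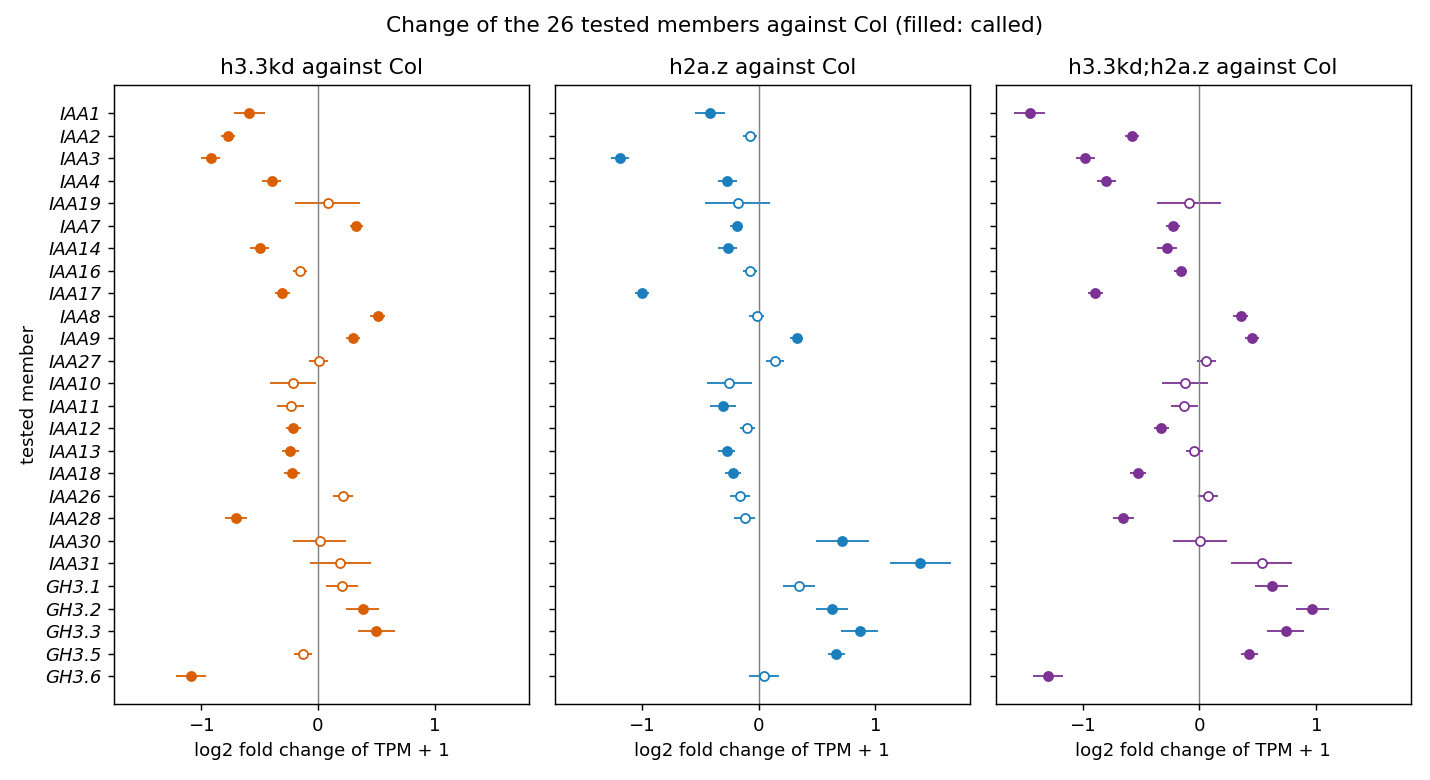
Difference of log2(TPM + 1) between each mutant and Col for the 26 tested members, with bars of 1 SE from limma; filled points are called. GH3.6 (-1.09) and IAA3 (-0.92) are the lowest points of h3.3kd, IAA3 (-1.19) and IAA17 (-0.996) those of h2a.z, and IAA1 (-1.45) and GH3.6 (-1.29) those of the double mutant.

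The closely related repressors IAA1 to IAA4 fell in nearly every comparison with Col. With the knockdown of H3.3 all 4 fell, in h2a.z 3 of 4 fell, and in the double mutant all 4 fell against Col. The shares of all genes tested that fell were 26.7%, 18.3% and 30.7%. IAA3 (AT1G04240) stood at 65.9, 57.2 and 54.8 TPM in the 3 Col libraries, at 33.1, 30.9 and 28.8 in h3.3kd, at 25.1, 24.3 and 26.9 in h2a.z with 30.8, 27.5 and 30.5 in the double mutant. IAA3 (SHY2), a repressor known for root meristem size and light responses, was thus far lower in every mutant and no mutant library reached a Col library. Its change was -0.92 ± 0.080, adjusted p = 8.44e-07 (SE, limma, as for every ± on a log2 value) in h3.3kd, -1.19 ± 0.080, adjusted p = 2.67e-08 in h2a.z and -0.98 ± 0.080, adjusted p = 1.6e-07 in the double mutant. The second loss gave no further call downwards: the change was 0.21 ± 0.080, adjusted p = 0.0414 against h2a.z and -0.061 ± 0.080, adjusted p = 0.591 against h3.3kd. The interaction was 1.13 ± 0.11, adjusted p = 1.33e-05. The small rise against h2a.z was lost without the mean-variance trend and without Col replicate 2, h3.3kd replicate 2, h2a.z replicate 1, h2a.z replicate 2, double mutant replicate 1 or double mutant replicate 3 (log2 0.18 to 0.21, adjusted p = 0.0527 to 0.128).

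IAA1 (AXR5) behaved otherwise. IAA1 (AT4G14560) stood at 21.5, 17.9 and 19.2 TPM in the 3 Col libraries, at 12.01, 12.8 and 13.1 in h3.3kd, at 16.6, 15.9 and 11.2 in h2a.z with 6.94, 5.46 and 7.14 in the double mutant. Every double mutant library lay under every library of the single mutants, and h2a.z and h3.3kd overlapped. The change against Col was -0.59 ± 0.13, adjusted p = 0.00296 in h3.3kd, -0.41 ± 0.13, adjusted p = 0.0169 in h2a.z and -1.45 ± 0.13, adjusted p = 4.34e-07 in the double mutant, a fall to 0.365 of the Col level on the TPM + 1 scale. Against the single mutants it fell again, by 1.04 ± 0.13, adjusted p = 1.56e-05 from h2a.z and by 0.87 ± 0.13, adjusted p = 0.000127 from h3.3kd. The interaction (-0.45 ± 0.18, adjusted p = 0.106) was called without h2a.z replicate 3 (log2 -0.62, adjusted p = 0.0134) alone. The call in h2a.z was lost without Col replicate 1 or h2a.z replicate 3 (log2 -0.25 to -0.35, adjusted p = 0.0743 to 0.09).

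IAA2 was low in the libraries with the H3.3 knockdown. IAA2 (AT3G23030) stood at 87.4, 80.9 and 86.9 TPM in the 3 Col libraries, at 49.5, 50.6 and 48.2 in h3.3kd, at 86.01, 74.1 and 82.5 in h2a.z with 56.99, 54.7 and 58.3 in the double mutant. The 6 libraries with the knockdown were all lower than the 6 without it, and Col and h2a.z overlapped. IAA2 fell in h3.3kd (-0.77 ± 0.061, adjusted p = 3.77e-07) and also in the double mutant against Col (-0.58 ± 0.061, adjusted p = 2.47e-06) and h2a.z (-0.50 ± 0.061, adjusted p = 1.21e-05), while h2a.z against Col was not called (-0.074 ± 0.061, adjusted p = 0.344). It was a little higher in the double mutant than in h3.3kd (0.19 ± 0.061, adjusted p = 0.0243), and the interaction was just called (0.27 ± 0.087, adjusted p = 0.0472). The former was lost with rescaled TPM, without the mean-variance trend and without h3.3kd replicate 1, h3.3kd replicate 3 or double mutant replicate 3 (log2 0.15 to 0.19, adjusted p = 0.0519 to 0.103). The latter was lost without the mean-variance trend, with a replicate block and without Col replicate 1, Col replicate 3, h3.3kd replicate 1, h3.3kd replicate 2, h3.3kd replicate 3, h2a.z replicate 2, h2a.z replicate 3, double mutant replicate 1 or double mutant replicate 3 (log2 0.21 to 0.28, adjusted p = 0.0509 to 0.116). IAA4 ranged from 27.3 to 53.8 TPM over all libraries and fell in each of the 5 pairwise comparisons, from -0.27 in h2a.z to -0.80 in the double mutant against Col. Its call in h2a.z was lost without Col replicate 1 or h2a.z replicate 3 (log2 -0.18 to -0.23, adjusted p = 0.0632 to 0.0881).

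IAA7, IAA14, IAA16 and IAA17, which include the genes of the classical auxin-resistant mutants axr2, slr and axr3, did not move as 1 group. In h3.3kd 1 of the 4 rose and 2 fell, and in h2a.z 3 fell. In the double mutant, which combines both losses, all 4 fell against Col. There 2 fell against h3.3kd and none was called against h2a.z. Of all genes tested, 9.12% rose and 26.7% fell in h3.3kd, and 18.3% fell in h2a.z. In the double mutant 30.7% fell against Col and 13.8% against h3.3kd, and against h2a.z 14.2% rose and 34.3% fell. The falls of IAA7 and IAA16 in the double mutant against Col were lost with rescaled TPM. IAA17 (AT1G04250) stood at 71.9, 72.8 and 74.1 TPM in the 3 Col libraries, at 57.01, 58.02 and 61.9 in h3.3kd, at 34.6, 37.5 and 36.1 in h2a.z with 35.8, 39.8 and 41.3 in the double mutant. IAA17 (AXR3) was lower in every library with H2A.Z mutated than in any other library. It fell in h2a.z (-0.996 ± 0.062, adjusted p = 1.27e-08) and also in the double mutant against Col (-0.89 ± 0.062, adjusted p = 3.49e-08) and h3.3kd (-0.59 ± 0.062, adjusted p = 5.74e-06), and less in h3.3kd (-0.30 ± 0.062, adjusted p = 0.00177). The interaction was 0.41 ± 0.088, adjusted p = 0.00567. The fall in h3.3kd was lost with rescaled TPM (log2 -0.18, adjusted p = 0.0891). A rise in the double mutant over h2a.z (0.11 ± 0.062, adjusted p = 0.174) was called only with rescaled TPM and without double mutant replicate 1 (log2 0.16 to 0.25, adjusted p = 0.0166 to 0.0314).

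IAA7 (AXR2) went up in 1 mutant and down in the others. IAA7 (AT3G23050) stood at 141, 139 and 149.7 TPM in the 3 Col libraries, at 175, 180.0 and 185 in h3.3kd, at 124, 123 and 129 in h2a.z with 119, 116 and 133 in the double mutant. All 3 h3.3kd libraries were above all others, and all h2a.z and double mutant libraries were under Col. IAA7 rose in h3.3kd (0.33 ± 0.057, adjusted p = 0.000433) and fell in h2a.z (-0.19 ± 0.057, adjusted p = 0.013), in the double mutant against Col (-0.23 ± 0.057, adjusted p = 0.00398) and against h3.3kd (-0.56 ± 0.057, adjusted p = 3.88e-06). Against h2a.z the double mutant was not called (-0.037 ± 0.057, adjusted p = 0.614). The interaction was negative (-0.37 ± 0.080, adjusted p = 0.00602). The fall in h2a.z was lost without Col replicate 3 (log2 -0.16, adjusted p = 0.0615), and that in the double mutant against Col with rescaled TPM (log2 -0.15, adjusted p = 0.109).

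IAA14 (SLR), the repressor whose stabilised form blocks lateral roots, was lower in each mutant. IAA14 (AT4G14550) stood at 24.7, 23.8 and 23.1 TPM in the 3 Col libraries, at 16.4, 17.7 and 15.9 in h3.3kd, at 19.4, 17.6 and 22.4 in h2a.z with 19.6, 20.02 and 18.98 in the double mutant. No mutant library reached the lowest Col library, and h2a.z and the double mutant overlapped. Its changes against Col were -0.50 ± 0.082, adjusted p = 0.000334 in h3.3kd, -0.26 ± 0.082, adjusted p = 0.0167 in h2a.z and -0.28 ± 0.082, adjusted p = 0.0113 in the double mutant, and the interaction was 0.48 ± 0.12, adjusted p = 0.0108. The call in h2a.z was lost without Col replicate 1 or h2a.z replicate 2 (log2 -0.18 to -0.24, adjusted p = 0.0556 to 0.0926). The double mutant against h3.3kd (0.22 ± 0.082, adjusted p = 0.0522) was called higher with voom on the recovered reads and without h2a.z replicate 2 or h2a.z replicate 3 (log2 0.22, adjusted p = 0.0282 to 0.0377). IAA16 ranged from 88.9 to 111 TPM and was called only in the double mutant against Col (-0.16 ± 0.058, adjusted p = 0.0313), where the groups overlapped. That call was lost with rescaled TPM, without the mean-variance trend and without Col replicate 2, Col replicate 3, double mutant replicate 2 or double mutant replicate 3 (log2 -0.085 to -0.16, adjusted p = 0.0673 to 0.154). IAA16 was called lower in h2a.z (-0.074) only with rescaled TPM (log2 -0.15, adjusted p = 0.0209), in h3.3kd (-0.15) only without double mutant replicate 1 or double mutant replicate 3 (log2 -0.15, adjusted p = 0.0204 to 0.0299), and in the double mutant against h2a.z (-0.086) only without double mutant replicate 1 (log2 -0.15, adjusted p = 0.0304).

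These members include 3 divergent neighbour pairs of the genome, with no annotated protein-coding gene between them: IAA3 and IAA17 on chromosome 1 (6388 bases apart), IAA2 and IAA7 on chromosome 3 (12510 bases) and IAA14 and IAA1 on chromosome 4 (10732 bases). IAA3 and IAA17 shared their largest fall, in h2a.z (-1.19 and -0.996), and parted with the knockdown of H3.3 (-0.92 and -0.30). IAA2 and IAA7 went opposite ways with the knockdown (-0.77 and 0.33). IAA1 and IAA14 fell by similar amounts in h3.3kd (-0.59 and -0.50) and in h2a.z (-0.41 and -0.26) but not in the double mutant (-1.45 and -0.28). These are 3 pairs set side by side, with no test of the pairs.

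**Figure D4:**
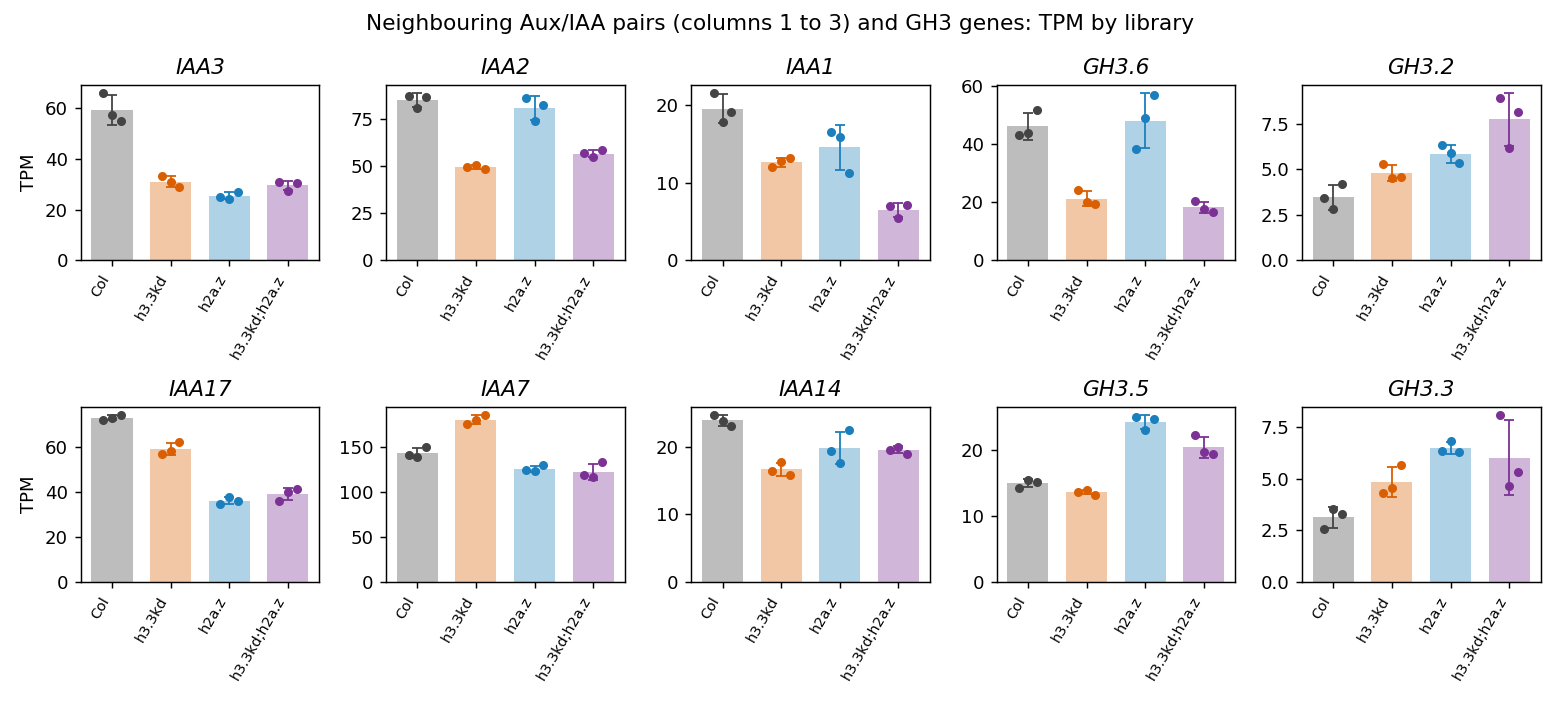
TPM of 10 members in each library (dots), with the group mean (bars, from 0) and SD (n = 3). The first 3 columns are the neighbour pairs IAA3 and IAA17, IAA2 and IAA7, IAA1 and IAA14; the last 2 are GH3 genes. IAA3 is at 59.3 ± 5.86 TPM in Col and 29.6 ± 1.83 in the double mutant, and GH3.6 is low in both groups with the H3.3 knockdown.

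IAA8 and IAA9 rose where most of the family did not. They and IAA27 form a clade of longer proteins. IAA8 (AT2G22670) stood at 112, 101 and 101 TPM in the 3 Col libraries, at 148, 149 and 152 in h3.3kd, at 109, 105 and 96.1 in h2a.z with 146, 128 and 129 in the double mutant. The 6 libraries with the knockdown of H3.3 were all above the 6 without it. IAA8 rose in h3.3kd (0.51 ± 0.065, adjusted p = 3.05e-05) and also in the double mutant against Col (0.35 ± 0.065, adjusted p = 0.000353) and h2a.z (0.37 ± 0.065, adjusted p = 0.000282), and h2a.z against Col was not called (-0.017 ± 0.065, adjusted p = 0.853). The double mutant against h3.3kd (-0.16 ± 0.065, adjusted p = 0.0717) was called lower with rescaled TPM, with voom on the recovered reads and without double mutant replicate 1 (log2 -0.17 to -0.22, adjusted p = 0.015 to 0.0167). IAA9 went from 103 ± 4.05 TPM in Col to 127 ± 1.91 in h3.3kd, 129 ± 3.71 in h2a.z, with 141 ± 11.04 in the double mutant, and rose against Col in all 3 (0.30, 0.33 and 0.45). The double mutant was called higher than h2a.z (0.12) with rescaled TPM, with voom on the recovered reads and without double mutant replicate 2 (log2 0.15 to 0.28, adjusted p = 0.000262 to 0.0413) and than h3.3kd (0.15) with voom on the recovered reads and without h2a.z replicate 1 or double mutant replicate 2 (log2 0.14 to 0.19, adjusted p = 0.0289 to 0.049), and the interaction of IAA9 (-0.17) was called without double mutant replicate 1 (log2 -0.24, adjusted p = 0.0251). IAA27, at 19.6 to 24.9 TPM, was called in no comparison.

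Among IAA10 to IAA13, which include IAA12 (BODENLOS, the partner of ARF5 in the embryonic root), changes were small. IAA13 had values of 20.2, 19.4 and 19.6 TPM in Col, 16.05, 17.6 and 16.2 in h3.3kd, 15.2, 15.9 and 17.4 in h2a.z and 18.3, 19.3 and 19.7 in the double mutant. Each single mutant was under Col, and the double mutant overlapped with Col. IAA13 fell in h3.3kd (-0.23 ± 0.072, adjusted p = 0.0198) and in h2a.z (-0.27 ± 0.072, adjusted p = 0.00605), was not called in the double mutant against Col (-0.043 ± 0.072, adjusted p = 0.643) and was higher in the double mutant than in h2a.z (0.23 ± 0.072, adjusted p = 0.016). The interaction was 0.46 ± 0.10, adjusted p = 0.00607. The fall in h3.3kd was lost with rescaled TPM and without Col replicate 1, h3.3kd replicate 1 or h3.3kd replicate 3 (log2 -0.12 to -0.22, adjusted p = 0.0624 to 0.216), and the rise against h2a.z without h2a.z replicate 1 (log2 0.19, adjusted p = 0.0572). The double mutant against h3.3kd (0.19 ± 0.072, adjusted p = 0.051) was called higher with a pseudocount of 0.1 TPM, without the filter on low values, without the mean-variance trend, with voom on the recovered reads and without h2a.z replicate 1, h2a.z replicate 3 or double mutant replicate 1 (log2 0.19 to 0.22, adjusted p = 0.0348 to 0.0494).

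IAA12, at 37.1 to 53.2 TPM, fell in h3.3kd (-0.21) and also in the double mutant against Col (-0.33) and h2a.z (-0.23). The call in h3.3kd was lost with rescaled TPM and without Col replicate 1, h3.3kd replicate 1 or h3.3kd replicate 2 (log2 -0.092 to -0.20, adjusted p = 0.0604 to 0.211), and that against h2a.z with rescaled TPM (log2 -0.078, adjusted p = 0.254). IAA12 was also called lower in h2a.z with rescaled TPM (log2 -0.17, adjusted p = 0.0185) and in the double mutant against h3.3kd with rescaled TPM (log2 -0.16, adjusted p = 0.0366). IAA11, at 5.91 to 9.17 TPM, was called only in h2a.z (-0.30 ± 0.12, adjusted p = 0.0404), and this was lost without the filter on low values, with voom on the recovered reads and without Col replicate 1, Col replicate 3, h3.3kd replicate 1, h2a.z replicate 1 or h2a.z replicate 2 (log2 -0.21 to -0.34, adjusted p = 0.0531 to 0.178). It was called higher in the double mutant against h2a.z with rescaled TPM (log2 0.31, adjusted p = 0.0201) and in the interaction with rescaled TPM (log2 0.43, adjusted p = 0.044). IAA10, at 1.36 to 3.166 TPM, was called in no comparison.

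IAA28 and IAA18, repressors known from lateral root and embryo development, fell. IAA28 went from 87.6 ± 7.62 TPM in Col to 53.6 ± 3.74 in h3.3kd, with 55.4 ± 4.89 in the double mutant, and was 80.9 ± 10.3 in h2a.z. It fell in h3.3kd (-0.70 ± 0.092, adjusted p = 4.6e-05) and also in the double mutant against Col (-0.65) and h2a.z (-0.53), and h2a.z against Col was not called (-0.12, adjusted p = 0.309). IAA18 fell in all 5 pairwise comparisons, from -0.22 in h2a.z to -0.52 in the double mutant against Col. Its call in h3.3kd was lost with rescaled TPM and without Col replicate 1, Col replicate 2, h3.3kd replicate 1 or h3.3kd replicate 2 (log2 -0.10 to -0.21, adjusted p = 0.0597 to 0.153), and that in h2a.z without Col replicate 2 or h2a.z replicate 2 (log2 -0.20 to -0.21, adjusted p = 0.0555 to 0.0606). IAA26 (AT3G16500) stood at 28.2, 28.4 and 26.6 TPM in the 3 Col libraries, at 33.1, 31.9 and 32.1 in h3.3kd, at 28.2, 21.4 and 24.9 in h2a.z with 30.7, 30.4 and 26.9 in the double mutant. The h3.3kd libraries were above all others, and the other groups overlapped. The change in h3.3kd was 0.21 ± 0.087, adjusted p = 0.0666, and was called higher with rescaled TPM, with voom on the recovered reads and without h2a.z replicate 1 or h2a.z replicate 2 (log2 0.21 to 0.33, adjusted p = 0.00639 to 0.0337). That in h2a.z was -0.16 ± 0.087, adjusted p = 0.142, and was called lower with rescaled TPM, with voom on the recovered reads and without h2a.z replicate 1 (log2 -0.23 to -0.26, adjusted p = 0.0199 to 0.0281). On the full TPM table IAA26 was called only in the double mutant against h2a.z (0.24 ± 0.087, adjusted p = 0.0345), and this was lost without the mean-variance trend and without h2a.z replicate 2, h2a.z replicate 3, double mutant replicate 1 or double mutant replicate 2 (log2 0.14 to 0.24, adjusted p = 0.0523 to 0.187).

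IAA19 (MSG2) and IAA29, the members best known from warmth and shade responses, were not called in any comparison. IAA19 (AT3G15540) stood at 4.10, 4.08 and 4.84 TPM in the 3 Col libraries, at 4.04, 4.85 and 5.11 in h3.3kd, at 1.81, 5.70 and 4.53 in h2a.z with 6.200, 2.52 and 3.96 in the double mutant. All groups overlapped. The reads behind these values were 70, 85 and 90 in Col, 101, 106 and 134 in h3.3kd, 8, 108 and 82 in h2a.z and 124, 58 and 67 in the double mutant. The changes of IAA19 against Col were 0.083 ± 0.28, adjusted p = 0.837 in h3.3kd, -0.18 ± 0.28, adjusted p = 0.619 in h2a.z and -0.090 ± 0.28, adjusted p = 0.806 in the double mutant, with the SE as large as or larger than each change. IAA29 (AT4G32280) stood at 1.264, 0.518 and 0.638 TPM in the 3 Col libraries, at 0.431, 0.444 and 0.452 in h3.3kd, at 0.730, 0.626 and 0.835 in h2a.z with 0.701, 0.421 and 0.191 in the double mutant. IAA29 rested on 3 to 20 reads a library and was under the level tested. Its h3.3kd libraries were all under those of Col, and the double mutant overlapped with both, and without the filter on low values it was called in no comparison.

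The other 7 members under the level tested stood at 0 to 1.97 TPM. Together with IAA29, the 8 rested on 0 to 24 reads a library, and on at most 5 in h2a.z replicate 1. IAA15 stood at 1.12 ± 0.208 TPM in Col, 0.394 ± 0.134 in the h3.3kd libraries, 1.56 ± 0.487 in h2a.z, with 0.862 ± 0.355 in the double mutant, on 5 to 24 reads. IAA33, which lacks both the degron core and the EAR pattern, stood at 0.835 ± 0.135 TPM in Col, 0.457 ± 0.364 in the h3.3kd libraries, 1.13 ± 0.1496 in h2a.z, with 0.285 ± 0.274 in the double mutant. Without the filter on low values, limma tested these genes too and made 6 calls among them, all lower. They fell in 3 comparisons in which more genes were called lower than higher among all 23794. These numbered 5001 lower and 1714 higher in h3.3kd and 6002 and 4001 in the double mutant, both against Col. In the double mutant against h2a.z they were 7154 and 2738. IAA15 was called in h3.3kd against Col (-0.60, adjusted p = 0.0154) and in the double mutant against h2a.z (-0.46, adjusted p = 0.0395). IAA33 was called in the double mutant against Col (-0.53, adjusted p = 0.0236) and h2a.z (-0.75, adjusted p = 0.00388). IAA6 was called in h3.3kd (-0.39, adjusted p = 0.0418) and also in the double mutant (-0.35, adjusted p = 0.0462) against Col. Leaving out h3.3kd replicate 2 or double mutant replicate 1 brought IAA15 over 1 TPM, and it was then called in h3.3kd against Col (-0.68, adjusted p = 0.0269 and -0.60, adjusted p = 0.0132), and without the latter also in the double mutant against h3.3kd (0.54, adjusted p = 0.0409).

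Of the non-canonical members, IAA30 and IAA31 passed the filter through h2a.z alone and were high there. IAA31 (AT3G17600) stood at 0.423, 0.139 and 1.55 TPM in the 3 Col libraries, at 0.692, 1.12 and 0.715 in h3.3kd, at 3.26, 2.97 and 3.35 in h2a.z with 1.23, 0.752 and 2.22 in the double mutant. Every h2a.z library was above all others. The reads were 5, 2 and 20 in Col, 12, 17 and 13 in h3.3kd, 10, 39 and 42 in h2a.z and 17, 12 and 26 in the double mutant, so Col replicate 3 held most of the reads of Col. IAA31 was called higher in h2a.z (1.38 ± 0.26, adjusted p = 0.000554) and lower in the double mutant than in h2a.z (-0.85 ± 0.26, adjusted p = 0.0144); the latter was lost with a pseudocount of 0.1 TPM and without double mutant replicate 2 (log2 -0.65 to -1.25, adjusted p = 0.0677 to 0.069). The interaction of IAA31 (-1.04 ± 0.37, adjusted p = 0.065) was called with a replicate block, with voom on the recovered reads and without Col replicate 3 or double mutant replicate 3 (log2 -1.04 to -2.14, adjusted p = 0.00849 to 0.0495), and the double mutant against Col (0.53 ± 0.26, adjusted p = 0.102) was called higher with voom on the recovered reads and without Col replicate 3 or double mutant replicate 2 (log2 0.74 to 1.38, adjusted p = 0.00656 to 0.046). IAA30 (AT3G62100) stood at 1.24, 0.941 and 0.730 TPM in the 3 Col libraries, at 0.663, 1.17 and 1.15 in h3.3kd, at 3.74, 1.27 and 2.08 in h2a.z with 1.36, 0.786 and 0.802 in the double mutant. IAA30 was called in the same 2 comparisons (0.72 ± 0.23, adjusted p = 0.0184 and -0.71 ± 0.23, adjusted p = 0.0184), and the high value of 3.74 TPM is 11 reads of the shallow library h2a.z replicate 1. The first call was lost with voom on the recovered reads and without Col replicate 3 or h2a.z replicate 1 (log2 0.43 to 0.93, adjusted p = 0.0574 to 0.0891), and the second with voom on the recovered reads and without h2a.z replicate 1, double mutant replicate 2 or double mutant replicate 3 (log2 -0.43 to -0.90, adjusted p = 0.0584 to 0.0896). The interaction of IAA30 (-0.73 ± 0.32, adjusted p = 0.137) was called without h2a.z replicate 2 (log2 -0.98, adjusted p = 0.0389). Most root markers were also higher in h2a.z, where 4 of 6 were called higher and 1, EXPA7, lower. EXPA7 was at 6.26 ± 0.813 TPM in Col and 4.74 ± 0.939 in h2a.z. The summed markers were at 193 to 242 TPM in h2a.z against 91.1 to 132 in Col. In h2a.z 28.9% of all genes tested were called higher and 18.3% lower. The part of the root markers in the rises of IAA30 and IAA31 was not tested.

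The GH3 enzymes did not change together. GH3.6 (DFL1), which forms auxin-amino acid conjugates and whose overexpression dwarfs hypocotyls, fell wherever H3.3 was knocked down. GH3.6 (AT5G54510) stood at 43.04, 43.5 and 51.4 TPM in the 3 Col libraries, at 24.2, 19.8 and 19.4 in h3.3kd, at 38.2, 48.9 and 56.9 in h2a.z with 20.2, 17.7 and 16.6 in the double mutant. The 6 libraries with the knockdown were all far under the 6 without it, and Col and h2a.z overlapped. The change was -1.09 ± 0.13, adjusted p = 1.56e-05 in h3.3kd, -1.29 ± 0.13, adjusted p = 1.17e-06 in the double mutant against Col and -1.34 ± 0.13, adjusted p = 1.03e-06 against h2a.z, falls of 2.13, 2.45 and 2.53-fold. Neither h2a.z against Col (0.046 ± 0.13, adjusted p = 0.796) nor the double mutant against h3.3kd (-0.21 ± 0.13, adjusted p = 0.233) was called. These 3 falls were called under every alternative tried. Of the 4 photosynthetic markers, 3 were called higher and 0 lower in h3.3kd against Col, and 2 higher and 2 lower in the double mutant against Col. Of the 4 seed storage genes, 2 were called higher in the former and all 4 in the latter (summed 78.00 to 229 TPM against 8.09 to 16.3). In these 2 comparisons 9.12% and 20.3% of all genes tested were called higher, and 26.7% and 30.7% lower. The part of these tissues in the falls was not tested.

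GH3.5 (WES1), its close relative, rose where H2A.Z was mutated. GH3.5 (AT4G27260) stood at 14.3, 15.4 and 15.2 TPM in the 3 Col libraries, at 13.7, 13.9 and 13.2 in h3.3kd, at 25.01, 23.1 and 24.8 in h2a.z with 22.3, 19.7 and 19.4 in the double mutant. The 6 libraries with H2A.Z mutated were all above the other 6. GH3.5 rose in h2a.z (0.67 ± 0.073, adjusted p = 4.15e-06) and also in the double mutant against Col (0.43 ± 0.073, adjusted p = 0.000201) and h3.3kd (0.56 ± 0.073, adjusted p = 3.93e-05), and h3.3kd against Col was not called (-0.13 ± 0.073, adjusted p = 0.191). It was lower in the double mutant than in h2a.z (-0.24 ± 0.073, adjusted p = 0.0145), and this call was lost with rescaled TPM and without double mutant replicate 2 or double mutant replicate 3 (log2 -0.093 to -0.21, adjusted p = 0.0523 to 0.235).

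GH3.2 (YDK1), another auxin-conjugating enzyme, was higher in every mutant. GH3.2 (AT4G37390) stood at 3.43, 2.81 and 4.17 TPM in the 3 Col libraries, at 5.32, 4.51 and 4.57 in h3.3kd, at 6.36, 5.88 and 5.34 in h2a.z with 8.95, 6.15 and 8.16 in the double mutant. Each mutant was above Col without overlap. It rose in h3.3kd (0.39 ± 0.14, adjusted p = 0.0434), h2a.z (0.63 ± 0.14, adjusted p = 0.00196) and the double mutant (0.97 ± 0.14, adjusted p = 4.54e-05) against Col, and in the double mutant against h3.3kd (0.58 ± 0.14, adjusted p = 0.00463). The call in h3.3kd was lost without the filter on low values and without Col replicate 1, Col replicate 2, h3.3kd replicate 1, h3.3kd replicate 2, h3.3kd replicate 3 or h2a.z replicate 2 (log2 0.28 to 0.42, adjusted p = 0.0546 to 0.181). The double mutant against h2a.z (0.34 ± 0.14, adjusted p = 0.0563) was called higher with rescaled TPM, with a replicate block, with voom on the recovered reads and without Col replicate 2, Col replicate 3 or double mutant replicate 2 (log2 0.34 to 0.48, adjusted p = 0.0124 to 0.0483).

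GH3.3 (AT2G23170) stood at 2.57, 3.55 and 3.27 TPM in the 3 Col libraries, at 4.30, 4.55 and 5.66 in h3.3kd, at 6.36, 6.81 and 6.27 in h2a.z with 8.07, 4.62 and 5.32 in the double mutant. GH3.3 was also above Col in each mutant, while the mutants overlapped except for h2a.z above h3.3kd. It rose in h3.3kd (0.50 ± 0.16, adjusted p = 0.0241), in h2a.z (0.86 ± 0.16, adjusted p = 0.000468) and also in the double mutant against Col (0.74 ± 0.16, adjusted p = 0.00135), and neither comparison of the double mutant with a single mutant was called (-0.12 and 0.24). The call in h3.3kd was lost without Col replicate 1 or h3.3kd replicate 3 (log2 0.40, adjusted p = 0.105 to 0.108). GH3.1 (AT2G14960) stood at 0.681, 0.657 and 0.809 TPM in the 3 Col libraries, at 1.18, 0.813 and 0.965 in h3.3kd, at 0.926, 1.48 and 1.17 in h2a.z with 1.68, 1.60 and 1.62 in the double mutant. GH3.1 passed the filter only through the double mutant and was called there against Col (0.62 ± 0.14, adjusted p = 0.00191) and h3.3kd (0.41 ± 0.14, adjusted p = 0.0331). Its reads were 17, 20 and 22 in Col and 49, 54 and 40 in the double mutant, and the second call was lost with a replicate block and without h3.3kd replicate 2, h3.3kd replicate 3, double mutant replicate 1, double mutant replicate 2 or double mutant replicate 3 (log2 0.35 to 0.42, adjusted p = 0.0529 to 0.126). GH3.1 in h2a.z against Col (0.35 ± 0.14, adjusted p = 0.0531) was called higher with a pseudocount of 0.1 TPM, without the filter on low values, without the mean-variance trend, with voom on the recovered reads and without h2a.z replicate 1 (log2 0.35 to 0.80, adjusted p = 0.011 to 0.0454), and in the double mutant against h2a.z (0.27 ± 0.14, adjusted p = 0.122) with rescaled TPM and without the mean-variance trend (log2 0.27 to 0.35, adjusted p = 0.0349 to 0.0406). The 5 genes together stood at 63.99 to 74.9 TPM in Col, 43.6 to 48.7 in the h3.3kd libraries, 76.8 to 94.4 in h2a.z and 49.8 to 61.3 in the double mutant. No GH3 member was called in the interaction on the full TPM table. That of GH3.3 (-0.62 ± 0.23, adjusted p = 0.0701) was called with voom on the recovered reads and without double mutant replicate 1 (log2 -0.79 to -0.83, adjusted p = 0.00616 to 0.0374).

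Each loss was measured in Col and again in the other mutant, with no library in common. For the loss of H2A.Z, 5 members fell in both (IAA1, IAA4, IAA7, IAA17 and IAA18), 2 rose in both (GH3.2 and GH3.5) and none was called in opposite directions. Of all genes tested, 7.56% fell and 13.9% rose in both. Only 1.08% rose in Col and fell in h3.3kd, and 0.562% did the reverse, so no opposite call among the members is close to those shares. IAA3, IAA14, IAA11 and IAA13 fell in Col alone, IAA9, IAA30, IAA31 and GH3.3 rose in Col alone, and IAA2 and GH3.1 rose in h3.3kd alone. The shares of all genes tested were 10.2%, 14.0% and 6.43% in the same order. For the knockdown of H3.3, 7 members fell in both (IAA1, IAA2, IAA4, IAA12, IAA18, IAA28 and GH3.6), IAA8 rose in both, and IAA3 and IAA13 fell in Col and rose in h2a.z, where each rise was lost without h2a.z replicate 1 (the values are above). Of all genes tested, 17.6% fell in both, 4.5% rose in both and 0.854% fell in Col and rose in h2a.z. IAA14 and IAA17 fell in Col alone, and IAA7, IAA9, GH3.2 and GH3.3 rose in Col alone. IAA26 rose in h2a.z alone, and IAA30, IAA31 and GH3.5 fell in h2a.z alone. The shares of all genes tested were 8.28%, 3.76%, 8.82% and 15.8% in the same order. These lists are those of the full TPM table, and several of the calls they rest on come or go with the setting, as given above. The entries of IAA30, IAA31 and GH3.1 are from members that passed the filter only through the group in which they were high. They are no evidence about either loss. A call in 1 background and not in the other is no test of a difference. That test is the interaction, in which IAA2, IAA3, IAA13, IAA14 and IAA17 were positive and IAA7 negative. For all 5 positive ones the mean of the double mutant was above that of the lower single mutant. The means were 56.7 against 49.4 TPM for IAA2, 29.6 against 25.4 for IAA3 and 19.1 against 16.2 for IAA13. They were 19.5 against 16.7 TPM for IAA14 and 38.97 against 36.1 for IAA17. The 5 were picked by the interaction in these same libraries, which favours this order, so the order is no separate evidence. By limma the difference was not called for IAA14 (adjusted p = 0.0522) or IAA17 (adjusted p = 0.174). The calls of IAA2, IAA3 and IAA13 were lost under 5, 7 and 1 of the 18 alternatives.

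**Figure D5:**
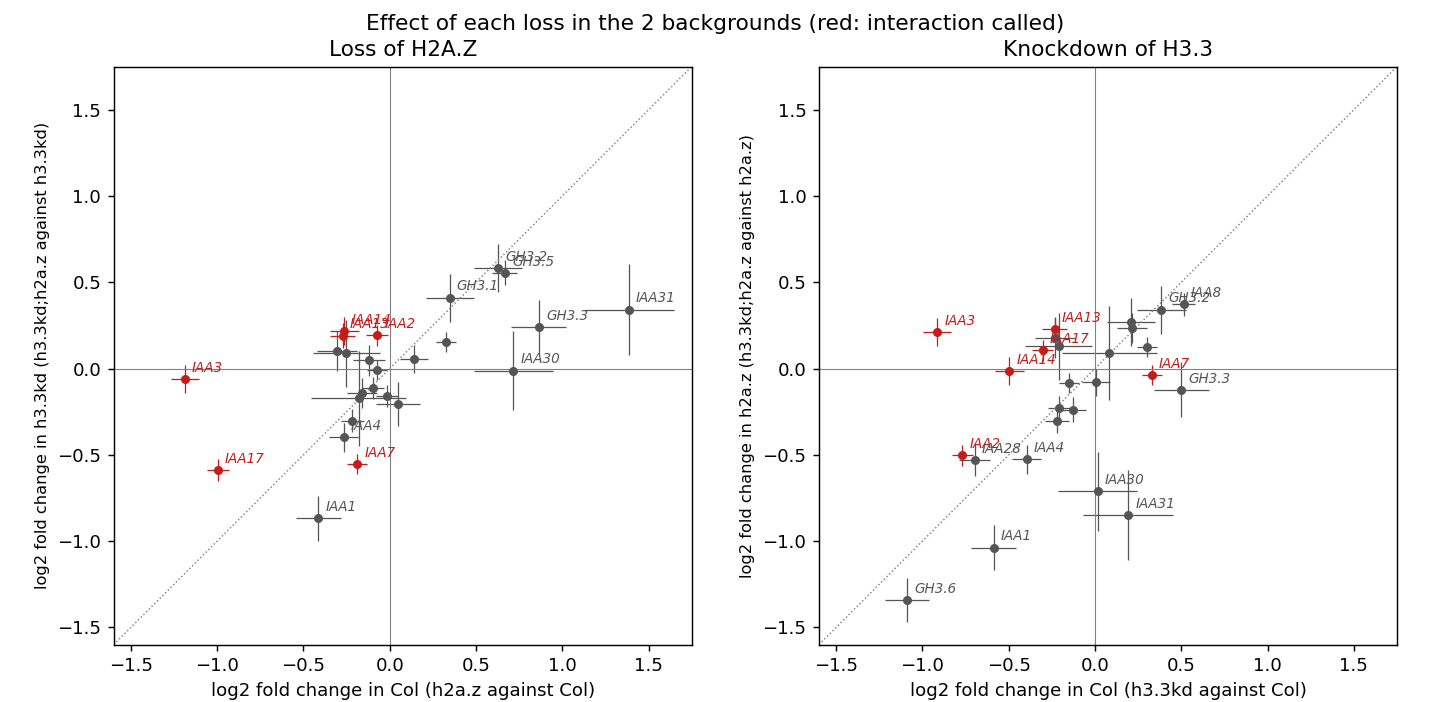
Change of each tested member in log2(TPM + 1) upon loss of H2A.Z (left) and knockdown of H3.3 (right), in Col on the horizontal axis and in the other mutant on the vertical axis, with bars of 1 SE. Members on the dotted line changed equally in both; red marks those called in the interaction. IAA3 lies farthest from the line (-1.19 and -0.061 on the left), and GH3.6 (-1.09 and -1.34 on the right) and IAA1 are low in both.

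Changes among the receptors were small. Over all genes tested, 9.12% rose and 26.7% fell in h3.3kd, 28.9% and 18.3% in h2a.z, and 20.3% and 30.7% in the double mutant. Of the 6 receptor genes, 2 rose and 1 fell in h3.3kd, 1 and 1 in h2a.z, and 3 and 1 in the double mutant, each against Col. TIR1 rose slightly in each (0.18, 0.17 and 0.20), and AFB2 fell in h3.3kd (-0.20) and also in the double mutant (-0.28). AFB3 was called in the interaction (0.39 ± 0.089, adjusted p = 0.0085). Of 4 genes of the SCF ligase and its activation (ASK1, CUL1, RBX1 and AXR1), 0 rose and 1 fell in h3.3kd, 1 and 2 in h2a.z, and 0 and 1 in the double mutant, each against Col, with ASK1 at -0.21 in h2a.z. Of the 5 TOPLESS co-repressors, 0 rose and 2 fell in h3.3kd, 0 and 0 in h2a.z, and 0 and 2 in the double mutant, each against Col, namely TPL (-0.19 and -0.28) and TPR4 (-0.21 and -0.20).

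Of the 5 activating ARFs, 0 rose and 3 fell in h3.3kd, 1 and 0 in h2a.z, and 0 and 3 in the double mutant, each against Col. The shares of all genes tested were 9.12% and 26.7%, 28.9% and 18.3%, and 20.3% and 30.7% in the same order. ARF7, the main activator of auxin responses in the hypocotyl and lateral roots, fell in h3.3kd (-0.34 ± 0.076, adjusted p = 0.00278) and also in the double mutant against h2a.z (-0.49 ± 0.076, adjusted p = 0.000109), where 4 of the 5 fell. In the latter, 34.3% of all genes tested fell. ARF6 was called in the interaction (-0.45 ± 0.098, adjusted p = 0.00599). Of 18 other ARFs 10 were tested, and 1 rose and 5 fell in h3.3kd, 2 and 4 in h2a.z, and 1 and 3 in the double mutant, each against Col. ARF4, a repressor-type ARF, fell in all 3 (-0.46, -0.44 and -0.51), and ARF10 fell in h3.3kd (-0.43) and h2a.z (-0.23) but not in the double mutant (0.043), with an interaction of 0.70 ± 0.099, adjusted p = 0.000316.

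Of 11 tested carriers, 1 rose and 3 fell in h3.3kd, 6 and 0 in h2a.z, and 3 and 3 in the double mutant, each against Col. Over all genes tested, 9.12% rose and 26.7% fell in h3.3kd, 28.9% and 18.3% in h2a.z, and 20.3% and 30.7% in the double mutant. LAX3, an influx carrier known from lateral root emergence, stood at 27.96 ± 2.25 TPM in Col, 16.1 ± 0.334 in the h3.3kd libraries, 51.4 ± 3.54 in h2a.z, with 19.9 ± 1.70 in the double mutant. It rose in h2a.z (0.86 ± 0.079, adjusted p = 7.49e-07), fell in h3.3kd (-0.75 ± 0.079, adjusted p = 5.46e-06) and was lower in the double mutant than in h2a.z (-1.33 ± 0.079, adjusted p = 8.12e-09). PIN5, a PIN protein of the endoplasmic reticulum, fell in h3.3kd (-1.12 ± 0.17, adjusted p = 0.000128) and also in the double mutant (-1.61 ± 0.17, adjusted p = 1.78e-06). LAX1 and LAX2 rose in h2a.z (0.67 and 0.60), where 4 of 6 root markers were called higher and 1 lower; their part in this was not tested.

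Of 5 tested genes of other GH3 enzymes and auxin oxidation, 1 rose and 1 fell in h3.3kd, 2 and 0 in h2a.z, and 4 and 1 in the double mutant, each against Col. The shares of all genes tested were 9.12% and 26.7%, 28.9% and 18.3%, and 20.3% and 30.7% in the same order. GH3.9 stood at 1.87 ± 0.306 TPM in Col, 7.32 ± 0.385 in the h3.3kd libraries, 5.23 ± 0.646 in h2a.z, with 11.42 ± 0.792 in the double mutant, and its rise of 2.12 ± 0.11, adjusted p = 1.85e-09 in the double mutant was larger than that of any GH3 member. GH3.17, which conjugates auxin to glutamate, fell in the double mutant (-0.56 ± 0.065, adjusted p = 5.43e-06), and GH3.10 (0.80), GH3.11 (JAR1, the enzyme that conjugates jasmonate, 0.48) and DAO1, which oxidises auxin (0.35), rose there. GH3.4 and ARF13, ARF14, ARF15, ARF21, ARF22 and ARF23 were not analysed here.

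Some gene models limit single values. IAA3, IAA5, IAA9, IAA27, IAA10, IAA11, IAA13, IAA32 and IAA34 each overlap 1 other annotated gene, for all but IAA34 on the opposite strand. No source used here says whether the counting used strand, so reads of the overlap cannot be told apart.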

How the data were processed

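The authors deposited 1 table of TPM values. Per the submitters' processing notes, the build was TAIR10 and the tools included HISAT2 2.1.10 and HTSeq 0.11.2, with fastp 0.20.1 and DESeq2 1.26.0 listed too, no role being given. No source used here says how TPM was computed. TPM adds up to 1000000 in every library, so abundant transcripts lower all others. Per the labels' protocols, total RNA was taken with a MiniBEST kit and libraries were made with an NEBNext Ultra kit.

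Groups follow the genotype labels. Values of log2(TPM + 1) were tested with limma 3.58.1 (R 4.3.3) in genes with a mean of at least 1 TPM. All 12 libraries entered 1 model with 8 residual degrees of freedom, a mean-variance trend, 6 two-sided contrasts and Benjamini-Hochberg adjustment over all 18851 genes tested. The fit was checked on simulated data. Alternatives were a pseudocount of 0.1, no filter (23794 genes), rescaled TPM, no trend, a replicate block, each library left out, and, chosen after seeing the data, limma-voom on the recovered reads, which precision-weights the shallow library. Counting error limits low members; replicates were all distinct. The 155 listed genes without a length in RefSeq TAIR10.1 gave no reads. Members and lists were chosen with earlier results of these data known. Values in every library are given for up to 3 called members with the largest rise and fall in each comparison and for IAA19 and IAA29; of each other auxin gene list at most 3 called genes are named per comparison. Sequences and gene models are from RefSeq TAIR10.1, whose gene lengths gave the whole reads; the deposited table holds no coordinates.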

Additional observations from a re-analysis of the deposited data

Results flagged for a closer look

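For 6 members the effect of 1 loss differed between the 2 backgrounds by the interaction test of limma over all genes. IAA3 had an interaction of 1.13 on the log2 scale (adjusted p = 1.33e-05), with the loss of H2A.Z at -1.19 in Col and -0.061 in h3.3kd. IAA14 had an interaction of 0.48 on the log2 scale (adjusted p = 0.0108), with the loss of H2A.Z at -0.26 in Col and 0.22 in h3.3kd. IAA13 had an interaction of 0.46 on the log2 scale (adjusted p = 0.00607), with the loss of H2A.Z at -0.27 in Col and 0.19 in h3.3kd. IAA17 had an interaction of 0.41 on the log2 scale (adjusted p = 0.00567), with the loss of H2A.Z at -0.996 in Col and -0.59 in h3.3kd. IAA2 had an interaction of 0.27 on the log2 scale (adjusted p = 0.0472), with the loss of H2A.Z at -0.074 in Col and 0.19 in h3.3kd. This call of IAA2 was lost under 11 of the 18 alternatives, while the interactions of the other 5 were called under every one. IAA7 had an interaction of -0.37 on the log2 scale (adjusted p = 0.00602), with the loss of H2A.Z at -0.19 in Col and -0.56 in h3.3kd. Of all genes tested, 7.39% were called positive and 10.1% negative.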

How the results depend on the processing

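Of 78 calls of a member in a comparison, 53 held under all 18 alternatives, 25 were lost under at least 1, and none changed direction. Rescaled TPM, which centres the median of all genes near 0, gave 7 members lower in h3.3kd against Col (from 11). It gave 9 higher in the double mutant against h2a.z (from 4). Over all genes, these calls went from 5042 to 3124 lower and from 2673 to 4923 higher. Voom on the recovered reads gave 7 higher in the double mutant against h3.3kd (from 4) and 3 negative in the interaction (from 1). Of the 18760 genes it tested, 4421 were higher and 2350 negative in these (from 3932 and 1904 of 18851). Voom also called 2385 genes higher and 5209 lower in h3.3kd against Col, where the TPM test called 1720 and 5042. The replicate numbers did not pair the libraries: deviations of same-numbered libraries correlated at -0.17 to 0.077. The replicate block gave 2 negative interactions and changed no other count by over 1.5 times. Leaving out 1 library gave 3 to 6 members higher and 8 to 13 lower in h3.3kd against Col. In h2a.z against Col it gave 5 to 6 and 5 to 9, and in the double mutant 6 to 7 and 11 to 12. The double mutant had 2 to 5 and 7 to 11 against h2a.z, and 2 to 6 and 5 to 6 against h3.3kd. The interaction had 4 to 5 positive and 1 to 3 negative. Counts over all genes are not given for these fits, so the ranges cannot be called particular to the members. The uncalled change of IAA19 turned sign when single libraries were left out, ranging over -0.44 to 0.19 in h2a.z against Col, -0.35 to 0.16 in the double mutant against Col, -0.28 to 0.35 against h2a.z, -0.43 to 0.082 against h3.3kd and -0.36 to 0.26 in the interaction. It also did with voom, at 0.040 in h2a.z, -0.17 in the double mutant against h2a.z and -0.31 in the interaction. Other than the centring, the cause was not tested. At the depth of h2a.z replicate 1, IAA19 rested on 8 reads and IAA30 on 11.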
